A study of Mus musculus with 2 samples.

Results

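Mir140 and Mir455 are the microRNA genes described here, as they stood in whole mouse heart at embryonic day 12.5. They were taken by gene symbol, as the 2 genes known from cartilage and matrix-forming mesenchyme that lie in introns of Wwp2 and Col27a1. The deposited tables held 1973 microRNA genes in all, so these are 2 of 1973. Hearts came from mouse embryos of the strain B6NCrl, with both sexes pooled and no treatment or altered gene given in the labels. All samples formed 1 group of 2 biological replicates with 1 small RNA library each. No contrast between conditions exists, and the data answer how much of each microRNA the hearts held and how far the libraries differed. The labels give 1 donor identifier for both replicates and do not say how many embryos were pooled. The spread between replicates may therefore be partly technical.

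A microRNA is cut from a hairpin in a longer transcript, and 1 arm of the hairpin is loaded into a silencing complex. Bases 2 to 8 of the mature arm, the seed, choose the messenger RNAs it represses. Mir140 is among the most abundant microRNAs of cartilage cells, and mice without it have shortened bones. Its host gene Wwp2 encodes a ubiquitin ligase, and the transcription factor SOX9 drives both in cartilage. Mir455 is also known from cartilage, and its host Col27a1 encodes a fibrillar collagen. In the embryonic heart, the mesenchyme of the endocardial cushions, from which valves form, shares SOX9 and several matrix genes with cartilage.

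The mature sequences below come from RefSeq on GRCm38.p6. They are shown because the seed, in capitals, is the part that sets each arm's targets. Each is written 5′ to 3′.
mmu-miR-140-3p: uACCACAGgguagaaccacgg
mmu-miR-455-5p: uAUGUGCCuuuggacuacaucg
mmu-miR-455-3p: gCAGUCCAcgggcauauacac
These 3 seeds differ from each other. The 5p arm of Mir140 was not among the mature sequences used, so statements on seeds and GC content leave it out. The RefSeq hairpin of Mir140, at chr8:107551244-107551313 on the plus strand of GRCm38.p6, shows where its 3p arm lies, with that arm in capitals from position 45 to position 65 of 70 bases.
Mir140 hairpin: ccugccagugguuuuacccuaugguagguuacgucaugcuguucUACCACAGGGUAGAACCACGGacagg
The deposited counts were made per gene, so reads of the arms of 1 hairpin were added together and no value here belongs to a single arm. Such counts do not show at which base the reads began, so the seeds given here are those of the annotated start.

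The listed seeds were shared with few other microRNAs. Among 1738 mature mouse sequences in the RefSeq table, 1 other sequence had the seed of miR-140-3p, 1 had that of miR-455-5p and 0 had that of miR-455-3p. These sequences are shown to set the shared capitals beside the differing remainder.
mmu-miR-497b: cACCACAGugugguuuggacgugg
mmu-miR-5129-3p: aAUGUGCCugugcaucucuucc
Mir497b, which has the seed of miR-140-3p, had 1 sense count in replicate 1 and 0 in replicate 2. Mir5129, which has the seed of miR-455-5p, had 3 and 2 sense counts in replicates 1 and 2. Both stood at or under the level of 3 counts that a count of 0 allows. The 2 cartilage microRNAs stood far above them, as the values below show. The GC content of the mature arms was 57.1% for miR-140-3p, 45.5% for miR-455-5p and 57.1% for miR-455-3p, against a median of 52.2% over the table.

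Both hairpins lie inside their host genes on the host's own strand. On the assembly GRCm38 with GENCODE M21, Mir140 (ENSMUSG00000065439.1) occupies chromosome 8 from 107551244 to 107551313 on the plus strand. This is intron 16 of 23 of Wwp2-201, the main coding transcript, with 1108 bases to the exon before it and 963 bases to the exon after it. The intron is 2141 bases long. A shorter coding transcript, Wwp2-205, starts 6.23 kb before the hairpin, against 115 kb for Wwp2-201. A retained-intron transcript of 1 exon, Wwp2-206, covers the hairpin too. Mir455 (ENSMUSG00000070102.1) occupies chromosome 4 from 63256851 to 63256932 on the plus strand. It lies in intron 10 of 60 of Col27a1-201, which is 2318 bases long, with 2109 bases to the exon before it and 127 bases to the exon after it. No annotated exon of Col27a1 overlaps Mir455. No other annotated gene overlaps either hairpin, and the nearest other microRNA gene lies 290 kb from Mir140 and 4376 kb from Mir455. Host transcripts are too long for these libraries and were not measured.

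**Figure D1:**
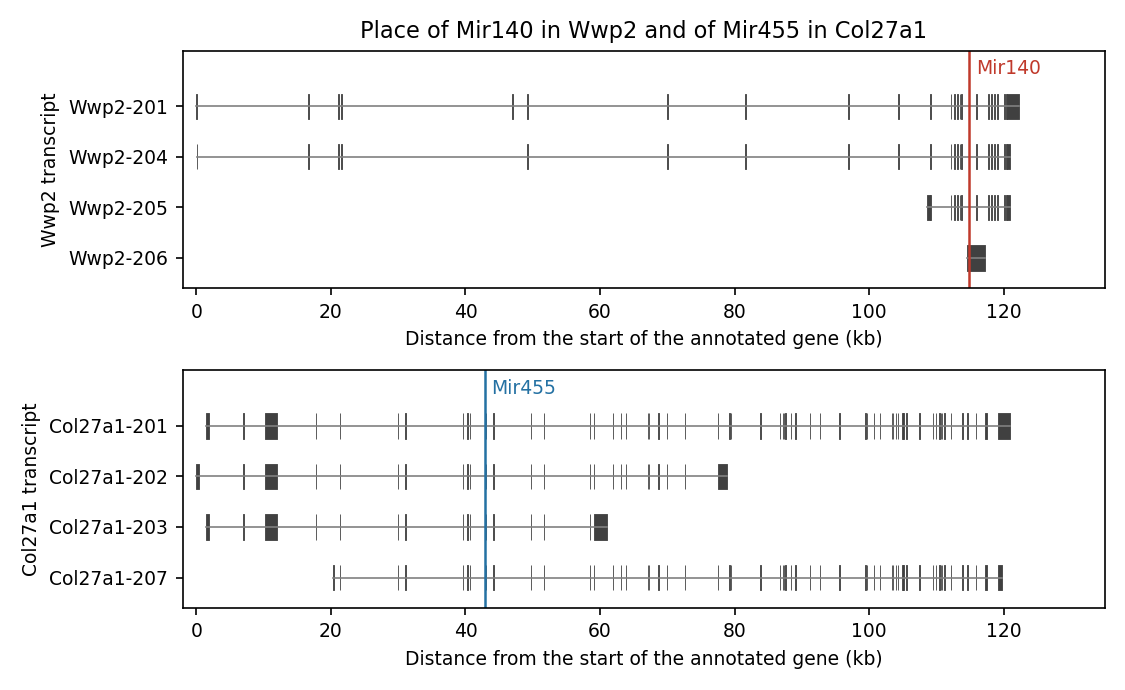
Place of each hairpin (coloured vertical line) in the transcripts that cover it, with exons as blocks and introns as lines, against distance in kb from the start of the annotated gene. Mir140 lies 115 kb into Wwp2 and near its end, and Mir455 lies 42.8 kb into Col27a1.

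Both microRNAs were detected in each heart library, with Mir140 at 8.85 times the level of Mir455. Mir140 had 15159 sense counts in replicate 1 and 17156 in replicate 2. Per 1000000 sense counts of all microRNA genes (CPM), these were 3385 and 3249 CPM, or 3317 ± 95.8 CPM (SD, n = 2). Mir455 had 1729 and 1922 sense counts in replicates 1 and 2. These were 386 and 364 CPM, or 375 ± 15.6 CPM (SD, n = 2). Each gene was slightly lower in replicate 2 than in replicate 1, and the levels of the 2 genes did not overlap. In bulk tissue, fewer cells that make a microRNA and less of it per cell cannot be told apart.

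The ratio of Mir140 to Mir455 within a library does not depend on that library's depth. It was 8.77 in replicate 1 (95% exact binomial interval 8.34 to 9.22) and 8.93 in replicate 2 (8.51 to 9.36). The intervals overlap, and the mean was 8.85 ± 0.112 (SD, n = 2), or 3.15 ± 0.0183 as a log2 ratio. Mir140 thus supplied 89.8% ± 0.116 (SD, n = 2) of the summed counts of the 2 genes. No molecular identifiers are given in the labels, so the intervals hold counting error alone, here and elsewhere. A read of this size class spans a mature microRNA, so levels were not divided by gene length. How far the ease of cloning differs between these sequences was not tested.

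The pair took a small part of the sense counts of all microRNA genes, 0.369% ± 0.0111 (SD, n = 2). Reads that matched several places, 27.1% and 25.3% of all reads in replicates 1 and 2, were counted to no gene. Genes with like hairpins elsewhere can therefore be undercounted in the shares and ranks here. Mir140 alone took 0.338% in replicate 1 and 0.325% in replicate 2. Mir455 took 0.0386% and 0.0364%. The most abundant gene, Mir335, which lies in the imprinted gene Mest, stood at 37.2 ± 2.84 times Mir140 (SD, n = 2). By mean level Mir140 was at rank 40 and Mir455 at rank 113 of the 712 genes with a count. Mir140 ranked 39 in replicate 1 and 40 in replicate 2, while Mir455 ranked 112 and 115. Genes above Mir140 held 87.4% and 87.6% of the counts in replicates 1 and 2, and genes above Mir455 held 98.0% and 98.1%. The median level of all genes with a count was 2.53 CPM, and 284 genes reached 10 CPM in both libraries.

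**Figure D2:**
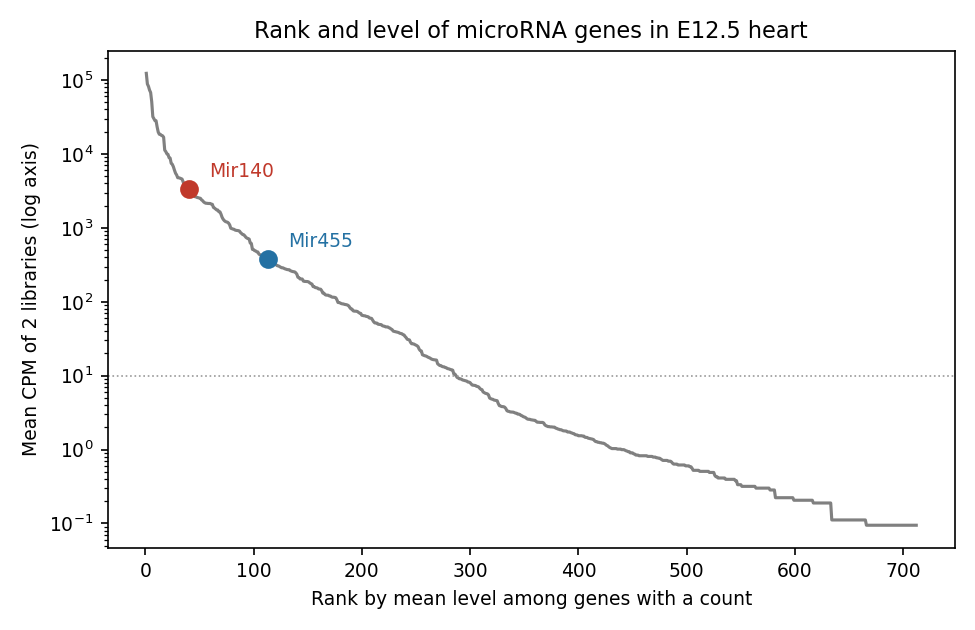
Mean CPM of the 2 libraries (log axis) against rank among the 712 genes with a count, with the dotted line at 10 CPM. Mir140 sits at rank 40 on the steep upper part of the curve and Mir455 at rank 113, both above the line.

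Each of the 6 nearest neighbours of Mir140 in mean level lay on the same side of it in both libraries, although their order among themselves changed. Mir342, at rank 36 by mean level and outside these neighbours, lay below Mir140 in replicate 1 (3310 CPM) and above it in replicate 2 (4121 CPM). The genes just above Mir140 were Mir214 (3455 ± 73.5 CPM), Mir18 (3576 ± 44.8 CPM) and Mir744 (3603 ± 286 CPM; SD, n = 2 for each level). Those just below were Mir532 (2934 ± 36.3 CPM), Mir379 (2917 ± 176 CPM) and Mirlet7d (2913 ± 521 CPM). The gap from Mir140 to Mir214, Mir18, Mir532 or Mir379 was larger than the combined SD of the pair of levels, the root of their summed squares. The gap to Mir744 and that to Mirlet7d were smaller than it.

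The order around Mir455 was not fixed. Just above it in mean level were Mir665 (378 ± 16.3 CPM), Mir10b (379 ± 122 CPM) and Mir708 (384 ± 9.05 CPM). Just below were Mir16-2 (358 ± 54.9 CPM), Mir671 (355 ± 40.5 CPM) and Mir676 (347 ± 16.7 CPM; SD, n = 2 for each level). Mir665, Mir10b, Mir16-2 and Mir671 each lay above Mir455 in 1 library and below it in the other. Mir455 and Mir676 differed by more than their combined SD, whereas the other 5 neighbours did not differ beyond it. The hairpins of Mir16-2 and Mir708 each have 22 bases in a row in common with a different microRNA hairpin, which leaves their own levels uncertain.

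The genes with the most similar values over both libraries were found by the summed absolute difference of log2(CPM + 1). For Mir140 these were Mir214 (0.12), Mir18 (0.22) and Mir744 (0.23). For Mir455 they were Mir708 (0.07), Mir540 (0.12) and Mir665 (0.17). With 2 libraries of 1 condition, this measure reflects level almost alone.

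Among the 14 microRNAs of a cartilage list, Mir140 held place 2 and Mir455 place 8. All 14 had a count and 11 reached 10 CPM in both libraries. Mir214, a microRNA of limb and skeletal mesenchyme, led the list and was nearly level with Mir140. It had 3507 and 3403 CPM in replicates 1 and 2. The ratio of Mir140 to Mir214 was 0.965 in replicate 1 and 0.955 in replicate 2, or 0.960 ± 0.00732 (SD, n = 2). Mir140 was therefore lower than Mir214 in each library. The margin was several times the SD of this ratio, but that SD rests on 2 values, and no counting interval was computed for the ratio.

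Between Mir140 and Mir455 in this list stood 5 genes. Mir381 and Mir337, both of the imprinted Dlk1-Dio3 region, averaged 2242 ± 80.9 and 1192 ± 70.6 CPM. Mir101b stood at 1649 ± 56.0 CPM and Mir27b, known in human cartilage cells as a repressor of the collagenase gene MMP13, at 1307 ± 92.3 CPM. Mir145a, a repressor of SOX9 that is also made by smooth muscle, stood at 1204 ± 105 CPM (SD, n = 2 for each level). Below Mir455 came Mir675, which is cut from the imprinted H19 transcript, at 276 ± 1.75 CPM, and Mir101a at 254 ± 11.3 CPM. Mir199a-2 had 36.2 and 55.3 CPM in replicates 1 and 2.

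The 3 members of the list under 10 CPM were Mir199a-1, Mir365-1 and Mir365-2. They had from 1 to 20 counts per library. Their hairpins have such a 22-base run in common with another microRNA hairpin, as does that of Mir199a-2, and reads with several matching places were counted to no gene. Their levels are therefore no measure of the mature miR-199a and miR-365. The hairpins of Mir140 and Mir455 have no such run in common with any other annotated microRNA hairpin. The arms miR-140-3p and miR-455-3p are 21 bases long, shorter than the run compared, so sharing of just such an arm was not tested. The whole list took 1.53% ± 0.0171 of the counts, and 1.16% ± 0.00601 without Mir140 and Mir455 (SD, n = 2).

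A second list held 8 microRNAs of matrix and mesenchyme, and it spanned a wider range. Mir143, a microRNA of smooth muscle, was 26.7 ± 1.10 times as abundant as Mir140 (SD, n = 2). Mir21a, a microRNA of fibroblasts, had 28354 and 28059 CPM in replicates 1 and 2, and Mir22 had 9283 and 8569 CPM. Mir199b stood at 510 ± 2.85 CPM and Mir29a, a repressor of collagen genes, at 289 ± 8.21 CPM, so Mir455 lay between them. Mir29c stood at 97.6 ± 6.64 CPM (SD, n = 2 for each level). Mir29b-1 and Mir29b-2 had at most 10 counts in a library, and they share sequence with each other. The levels of Mir199b and Mir29c are uncertain for the same reason.

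**Figure D3:**
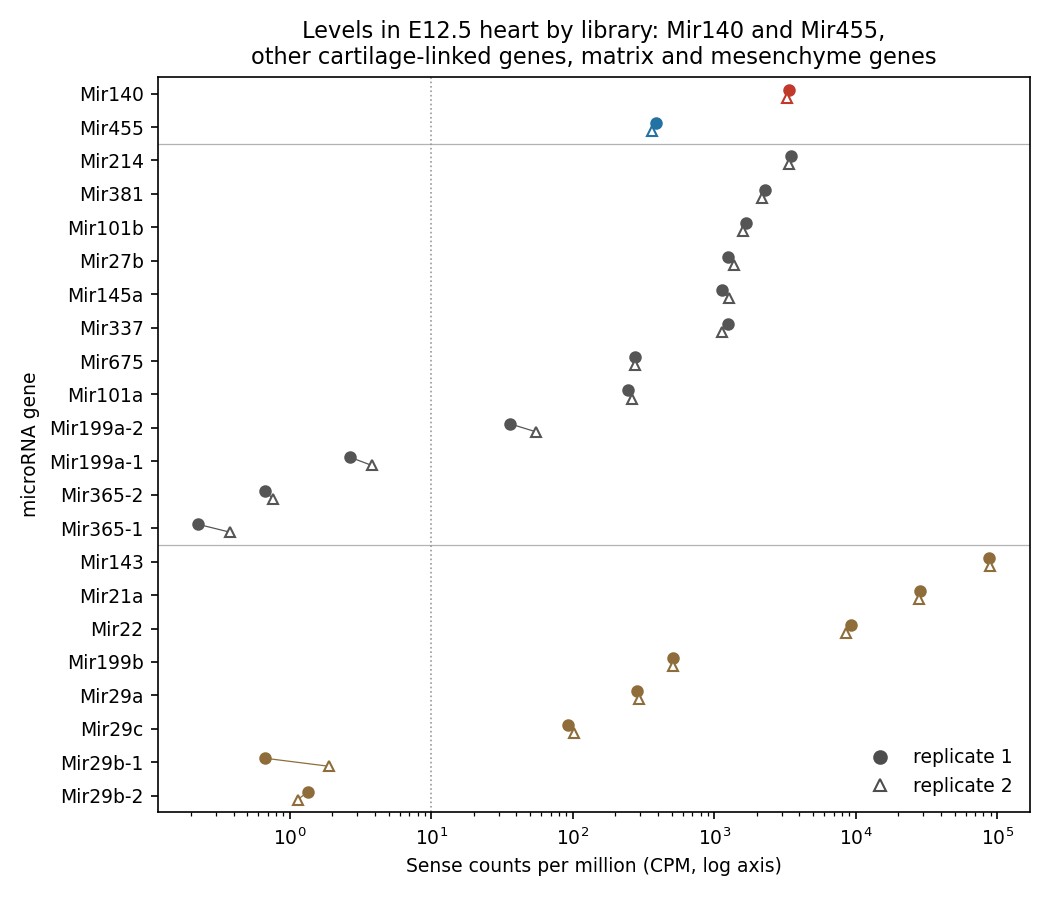
CPM (log axis) of each gene in replicate 1 (filled circles) and replicate 2 (open triangles) for Mir140 and Mir455 (top), the other cartilage genes (middle, grey) and the matrix and mesenchyme genes (bottom, brown), with the dotted line at 10 CPM. The symbols of Mir140 and Mir455 nearly touch, at 3385 and 3249 CPM and at 386 and 364 CPM.

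Among microRNAs in introns of other genes, the place of the pair depended on the rule for an intron. By the stricter rule, under which no exon of the host may overlap the hairpin, 661 microRNA genes were intronic, 326 of them had a count, and Mir455 held place 42. Mir140 is outside that set because of the retained-intron transcript. With only coding transcripts considered, a rule chosen after the data were seen, 707 genes were intronic. Of these 360 had a count, with a median of 1.25 CPM, and Mir140 held place 20 and Mir455 place 48. Over all 712 genes with a count, intronic or not, their ranks were 40 and 113.

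The labelled tissue was checked by muscle markers from myosin introns, and other heart muscle microRNAs were not part of this list. Mir208a, Mir208b and Mir499, microRNAs of myosin heavy chain introns, were all present and together took 6.40% and 6.19% of the counts in replicates 1 and 2. For each Mir140 count there were 19.0 ± 0.114 counts of these heart muscle genes, and for each Mir455 count 168 ± 3.14 (SD, n = 2). Mir1a-1, a muscle microRNA outside the list, had only 11 and 25 sense counts in replicates 1 and 2. Its hairpin has a 22-base run in common with another microRNA hairpin, so these counts do not measure the mature miR-1. The endothelial Mir126a took 6.70% and 6.88%, the smooth muscle list (2 of 2 genes at 10 CPM or more) 8.88% and 9.05%, and the mesenchyme list (4 of 5) 3.24% and 3.20%. Most of the smooth muscle share was Mir143, with 87662 and 89222 CPM in replicates 1 and 2, beside 1130 and 1277 CPM of Mir145a. Most of the mesenchyme share was Mir21a, with 28354 and 28059 CPM, and Mir214 came next with 3507 and 3403 CPM. Epithelial genes (7 of 7) took 0.112% and 0.111%, white blood cell genes (2 of 2) 0.0310% and 0.0322%, and skeletal muscle genes (1 of 2) 0.00346% and 0.00284%. Red blood cell genes (2 of 2) took 0.0926% and 0.181%, and the liver gene Mir122 took 0.0181% and 0.00324%. Of the 2 red blood cell genes, Mir451a had 770 and 1671 CPM in replicates 1 and 2 and was called by the exact binomial test described below. Mir144 had 156 and 140 CPM and was not called (adjusted p = 0.188, exact binomial test). Of 5 neuronal genes analysed here, 0 reached 10 CPM, and 3 had no count. All 5 have a 22-base run in common with another microRNA hairpin, so these counts do not measure the mature miR-124 and miR-9. The cells that made Mir140 and Mir455 were not identified.

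The 2 libraries gave nearly the same level for each cartilage microRNA. Replicate 2 over replicate 1, the CPM ratio was 0.960 for Mir140 (95% counting interval 0.939 to 0.981) and 0.943 for Mir455 (0.883 to 1.01). On the scale of log2(CPM + 1) the differences were −0.06 and −0.08. An exact binomial test (two-sided) of the 2 counts of each gene, with Benjamini-Hochberg adjustment over 712 genes, gave an adjusted p of 0.00194 for Mir140. For Mir455 the adjusted p of the same exact test was 0.308. The test thus called 1 of the 2 genes, where 16.7% of all genes tested were called in either direction and 8.71% as lower in replicate 2. It compares these libraries by counting error only and shows no difference between conditions.

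Most genes counted as deeply as these were called. Of the 40 genes with at least the total count of Mir140, 37 were called, and of the 112 genes with at least that of Mir455, 79 were called. The call of Mir140 was lost with TMM scaling, which corrects for library composition (adjusted p = 0.0944, exact binomial test). With a minimum ratio of 2-fold added, 0 of the 2 genes and 0.421% of all genes were called. The call of Mir140 and not of Mir455 does not show that the genes differed in this, and the intervals of their ratio overlapped between the 2 libraries.

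Set against genes of like level, the difference between libraries was below their median for both. Within 2-fold of the level of Mir140 lay 40 other genes with a median absolute log2 difference of 0.09, and 14 of them differed less between the libraries than Mir140. Within 2-fold of the level of Mir455 lay 57 other genes with a median of 0.10, and 20 of them differed less. The median over all 444 genes with at least 10 counts in total was 0.17.

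**Figure D4:**
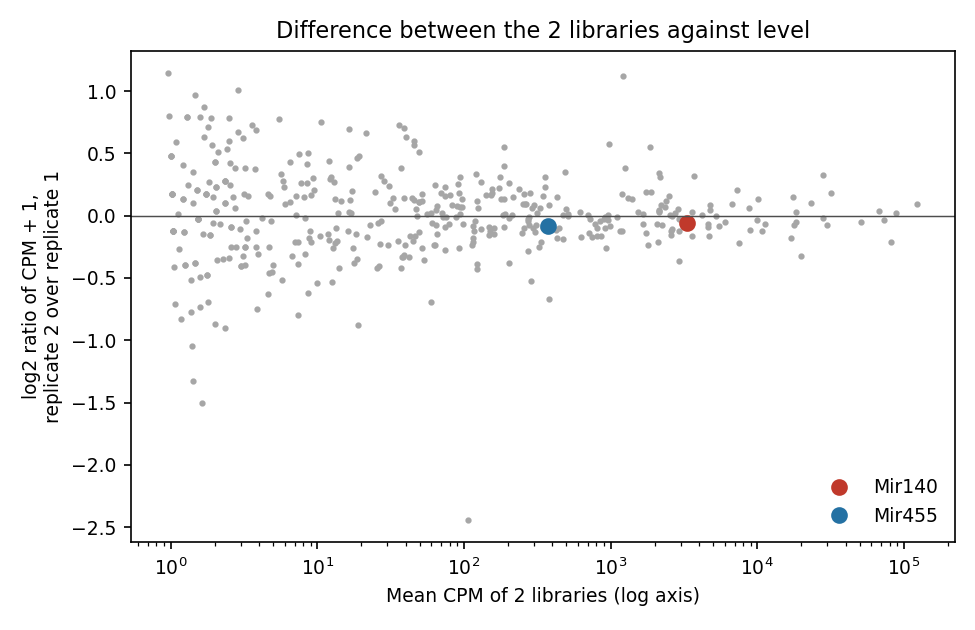
log2 ratio of CPM + 1, replicate 2 over replicate 1, against mean CPM (log axis) for genes with at least 10 counts in total (grey points), with Mir140 and Mir455 in colour. Both lie just under the line of no difference, at −0.06 and −0.08, inside the band of genes of like level.

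Neither gene had a count on the opposite strand. Mir140 and Mir455 each had 0 opposite-strand counts in both libraries, which allows levels of at most 0.670 and 0.568 CPM in replicates 1 and 2. Their counts with and without regard to strand are therefore the same.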

How the data were processed

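The authors deposited 1 table of raw counts per library, with 1 row per microRNA gene, made on the assembly mm10 with annotation M4 per the file headers. Which aligner and counter made them is not given in the sources used here. The 3 columns of counts have no names, and the second was read from their sums as counts on the gene's strand, which were used. The 4 rows that name no gene were left out. Of all reads, 27.1% and 25.3% matched several places in replicates 1 and 2 and were counted to no gene, 18.1% and 19.1% were unmapped, 6.29% and 5.88% had no gene on their strand, and 0 were ambiguous. Replicate 1 held 9235580 reads and 4478599 sense counts, and replicate 2 held 10601121 and 5279908.

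Of 1973 gene identifiers, 1894 matched GENCODE M21 on GRCm38, which is mm10. CPM used the sum of sense counts. Intervals are exact, at 95%. Hairpins were compared by 22-base windows of M21 microRNA transcripts on their own strand; the rest of the genome was not searched. The mature sequence table matched both genes. The pseudocount was 1 CPM before log2.

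Genes named by rule were the pair, the cartilage, matrix and marker lists, and the 3 neighbours on each side in level. The 3 most similar genes, those sharing a seed, and the most abundant gene were named too. Mir342 and Mir1a-1 stand outside these rules. The pair and the lists were chosen with earlier results of these data known. Mir9-1, a neuronal marker, was not analysed here. The binomial test was tested on simulated data. Alternatives were other scaling, denominators, strand columns, pseudocounts and filters, and each replicate left out. Software was Python 3.11.15, numpy 2.4.6, pandas 2.3.3, scipy 1.17.1, matplotlib 3.10.9, R 4.3.3, edgeR 4.0.16 (TMM) and DESeq2 1.42.0 (size factors).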

Additional observations from a re-analysis of the deposited data

Results flagged for a closer look

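The sense counts used here leave out the opposite strand. Among the 60 genes named by rule, 4 had more counts there than the 3 that a count of 0 allows, in both libraries. At Mir497b, which shares the seed of miR-140-3p, the opposite strand held 1770 and 2122 counts in replicates 1 and 2, a mean of 399 CPM of the sense total, beside 1 and 0 sense counts. Reads of the opposite strand do not have the sequence of miR-497b, so these counts are no measure of that seed. Which microRNA gave them was not tested. At Mir708, the gene with the smallest summed log2 difference from Mir455 over both libraries, it held 26 and 16 counts, a mean of 4.42 CPM, beside 1747 and 1992 sense counts. At the epithelial marker Mir203 it held 35 and 29 counts, a mean of 6.65 CPM, and at the endothelial marker Mir126a 21 and 30 counts, a mean of 5.19 CPM.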

How the results depend on the processing

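No paired analysis was possible because all samples belong to 1 group. With counts taken without regard to strand, Mir140 was at 3171 CPM and rank 42 and Mir455 at 359 CPM and rank 122. With all reads as the denominator, the levels were 1629.8 and 184 CPM, and without Mir335 in the denominator 3784 and 428 CPM. Among hairpins that share no 22-base window with another, Mir455 ranked 102 and Mir140 ranked 40. Over the settings that leave out 1 replicate, Mir140 ranged from 3249 to 3385 CPM and from rank 39 to 40, Mir455 from 364 to 386 CPM and from rank 112 to 115, and their ratio from 8.77 to 8.93. With TMM scaling the log2 difference of Mir140 between replicates was −0.039 (adjusted p = 0.0944, exact binomial test), so its call was lost, and over all settings its adjusted p ran from 0.00194 to 0.0944. That of Mir455 ran from 0.308 to 0.531, so it was not called in any. The number of genes called was 119, from 114 to 128 under other scaling, strand or filters, and 3 with a minimum ratio of 2-fold. That count has no value without a replicate. No direction was reversed. Counting error limits Mir455 more than Mir140, with 3651 against 32315 counts in total.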
